A study of Mus musculus with 2 samples.

Results

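Tuft cells are rare chemosensory cells of the intestinal epithelium, and 10 genes that mark them were followed here: Dclk1, Trpm5, Pou2f3, Alox5ap, Il17rb, Avil, Gfi1b, Rgs13, Hpgds and Sh2d6. They were taken by name from the array, which carries 18 probes for them among 41165 non-control probes kept. Of the 10 genes, 9 gave a usable signal, among 17150 genes measured in all. The study extracted total RNA from small intestine, and its C57BL/6 mice were 6 to 8 weeks old. The tested mice (FAF) lived on a food antigen-free diet with amino acids, kept up for at most 5 generations, and the control mice (Conv) ate the chow LASQCdietRod16. The labels mention specific-pathogen-free as well as germ-free animals without saying which gave this RNA, and they do not say whether each RNA came from 1 mouse or several. The same FAF and Conv RNA pair was hybridised to 2 two-colour arrays, once with FAF in Cy5 and once with FAF in Cy3, so there is 1 RNA sample per diet and no test between diets.

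Tuft cells sense the gut contents through a taste-like cascade, in which G protein-coupled receptors open the cation channel Trpm5. In the mouse intestine they release interleukin 25, leukotrienes and prostaglandins. Interleukin 25 acts on group 2 innate lymphoid cells, whose interleukin 13 in turn increases tuft and goblet cells. The transcription factor Pou2f3 is needed for the cells to form. In whole-tissue RNA, more or fewer tuft cells cannot be told apart from more or less RNA per cell.

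Probes that cross an exon junction, judged by a genomic span longer than their own length, read spliced transcript. The 4 printed next are shown because they carry the Avil and Hpgds values, an upstream exon junction of Dclk1, and the only Pou2f3 probe. They are 60 bases long, as given in the array files, 5′ to 3′, with positions in mouse build mm9. They are in lower case with no part singled out.
Avil, chr10:126453541-126454065, plus strand: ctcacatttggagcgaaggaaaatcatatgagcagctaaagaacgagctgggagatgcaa
Hpgds, chr6:65070081-65073609, minus strand: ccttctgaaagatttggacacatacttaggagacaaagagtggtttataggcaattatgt
Dclk1, chr3:55184765-55254910, plus strand: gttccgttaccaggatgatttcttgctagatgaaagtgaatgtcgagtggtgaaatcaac
Pou2f3, chr9:42954951-42984381, minus strand: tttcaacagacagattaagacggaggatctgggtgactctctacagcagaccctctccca

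All 9 measured tuft cell genes had a ratio of FAF over Conv above 0 on both arrays, a pattern shared by 38.7% of all measured genes. The ratios were small. By a rule of size, which asks for a mean of at least 2-fold with each array at least 1.5-fold the same way, 0 of the 9 were higher in FAF and 0 were lower. Among all genes 1.53% passed as higher and 0.88% as lower, 2.41% in all. When the limit on the mean was set at 1.5-fold and the arrays had to share a sign, 1 of the 9 was higher and 0 were lower, against 4.52% and 3.59% of all genes. That gene was Rgs13. The median log2 ratio of the 9 genes was 0.32, while that of all genes was 0.00, with quartiles at -0.17 and 0.16. The summed net intensity of the 9 genes, after subtraction of the local background, was 2514 in Cy5 and 1052 in Cy3 in FAF RNA, against 1721 in Cy5 and 657.0 in Cy3 in Conv RNA. Net intensities, here and below, are not normalised between arrays. Their median over all measured probes was 1.08-fold higher in FAF in Cy5 and 1.18-fold in Cy3. No replicate mice stand behind these values. Where a ± follows a log2 ratio below, it gives how far each array lay from the mean of the pair. It covers dye and hybridisation error only.

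The largest ratio belonged to a signalling gene. Rgs13, a regulator that speeds the switching off of G proteins and is known also from mast cells and germinal centre B cells, is read by 1 probe at chr1:145986491-145986550. After subtraction of the local background, its mean spot intensity was 344.3 in Cy5 and 169.1 in Cy3 in FAF RNA, against 187.8 in Cy5 and 66.4 in Cy3 in Conv RNA. Both FAF values were above the Conv value of the same dye. These raw signals gave 1.83-fold in Cy5 and 2.54-fold in Cy3, where the median over all measured probes was 1.08-fold and 1.18-fold. After loess normalisation the log2 ratio of Rgs13 was 0.63 on the array with FAF in Cy5 and 0.75 on the other, a mean of 0.69 ± 0.06 or 1.61-fold. Of all measured genes, 3.29% had a higher ratio.

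Sh2d6, which encodes a protein with an SH2 domain and is a marker found in tuft cell profiles, followed at 0.44 ± 0.06 or 1.35-fold. Its probe spans chr6:72465596-72465950 and crosses an exon junction. The net intensity was 215.7 in Cy5 and 94.5 in Cy3 in FAF RNA, against 117.8 in Cy5 and 52.6 in Cy3 in Conv RNA. The array values of Sh2d6, 0.37 and 0.50, did not reach the lower array value of Rgs13.

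The channel and the cytokine receptor lay near the bottom of the order. Trpm5, the cation channel at the end of the taste cascade, is read at chr7:150257715-150257774. Its net intensity was 346.3 in Cy5 and 143.4 in Cy3 in FAF RNA, against 302.6 in Cy5 and 109.0 in Cy3 in Conv RNA. Its log2 ratio was 0.10 ± 0.04, or 1.07-fold, and 33.9% of all genes had a higher one. A second Trpm5 probe was never well above background, a state that the scanner software flags for each spot and dye. Il17rb, a subunit of the receptor for interleukin 25, had a log2 ratio of 0.16 ± 0.03 at its probe chr14:30809514-30809573. Net intensities of Il17rb were 145.8 in Cy5 and 67.7 in Cy3 in FAF RNA, against 113.9 in Cy5 and 46.2 in Cy3 in Conv RNA. Its other probe was never well above background.

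**Figure D1:**
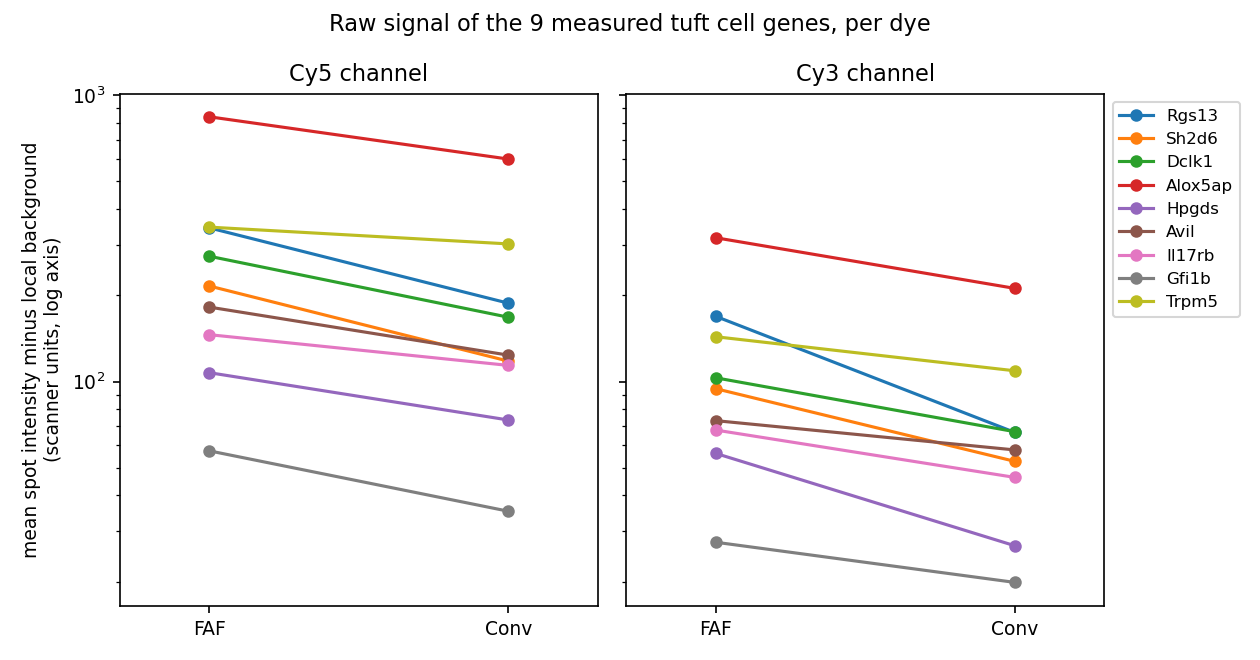
Mean spot intensity minus local background of the 9 measured tuft cell genes (vertical axis, scanner units on a log scale) in FAF and Conv RNA, with 1 panel per dye and 1 line per gene. In each panel FAF and Conv come from different arrays, with no normalisation between them. Every line is higher at FAF than at Conv in both dyes, and Rgs13 has the steepest line in Cy3. The median over all measured probes was also higher in FAF, 1.08-fold in Cy5 and 1.18-fold in Cy3.

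The transcription factors gave signals close to background. Pou2f3 had 1 probe, shown above, and its spot missed the software's mark for a signal well above background in both diets on both arrays, so no ratio is given for it. Its net intensity was 3.4 in Cy5 and 10.7 in Cy3 in FAF RNA, against 20.5 in Cy5 and 11.4 in Cy3 in Conv RNA. Gfi1b, a zinc finger repressor used by tuft cells and by the erythroid and megakaryocyte lineages, is read at chr2:28464982-28465041. Its net intensity was 57.3 in Cy5 and 27.5 in Cy3 in FAF RNA, against 35.2 in Cy5 and 19.9 in Cy3 in Conv RNA. The log2 ratio of Gfi1b was 0.14 ± 0.03, with array values of 0.12 and 0.17. This small value depended on the background correction. In the log ratio of the scanner software, which subtracts the background, Gfi1b stood at 0.74, or 1.67-fold.

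Dclk1 and Avil are the structural markers. Dclk1 encodes a microtubule-associated kinase of the doublecortin family, used both by tuft cells and by neurons, and it has 7 probes, of which 5 were measured. All 5 had a log2 ratio above 0 on both arrays, with means from 0.10 to 0.34. The brightest of them, at chr3:55342815-55342874, represents the gene. It had net intensities of 274.0 in Cy5 and 103.1 in Cy3 in FAF RNA, against 167.7 in Cy5 and 66.8 in Cy3 in Conv RNA. Its log2 ratio was 0.34 ± 0.05, or 1.26-fold. Nearby, the probe at chr3:55340456-55340515 stood at 0.22 ± 0.04. The probe at chr3:55340263-55340322 had the same mean as the brightest, 0.34, but its arrays differed widely, at 0.58 and 0.11. The junction probe of Dclk1 printed above lies farthest upstream and stood at 0.20 ± 0.07, and it was well above background in Conv on 1 of the 2 arrays. The lowest value, 0.10 ± 0.03, came from the probe at chr3:55271688-55271747. With the mean of the 5 probes in place of the brightest, Dclk1 stood at 0.24.

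Avil, an actin-binding protein of the villin family found in the microvilli of tuft cells and in sensory neurons, is read by the junction probe shown above. Its net intensity was 182.0 in Cy5 and 73.0 in Cy3 in FAF RNA, against 123.6 in Cy5 and 57.7 in Cy3 in Conv RNA. The log2 ratio of Avil was 0.17 ± 0.03, or 1.12-fold, with array values of 0.14 and 0.20.

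**Figure D2:**
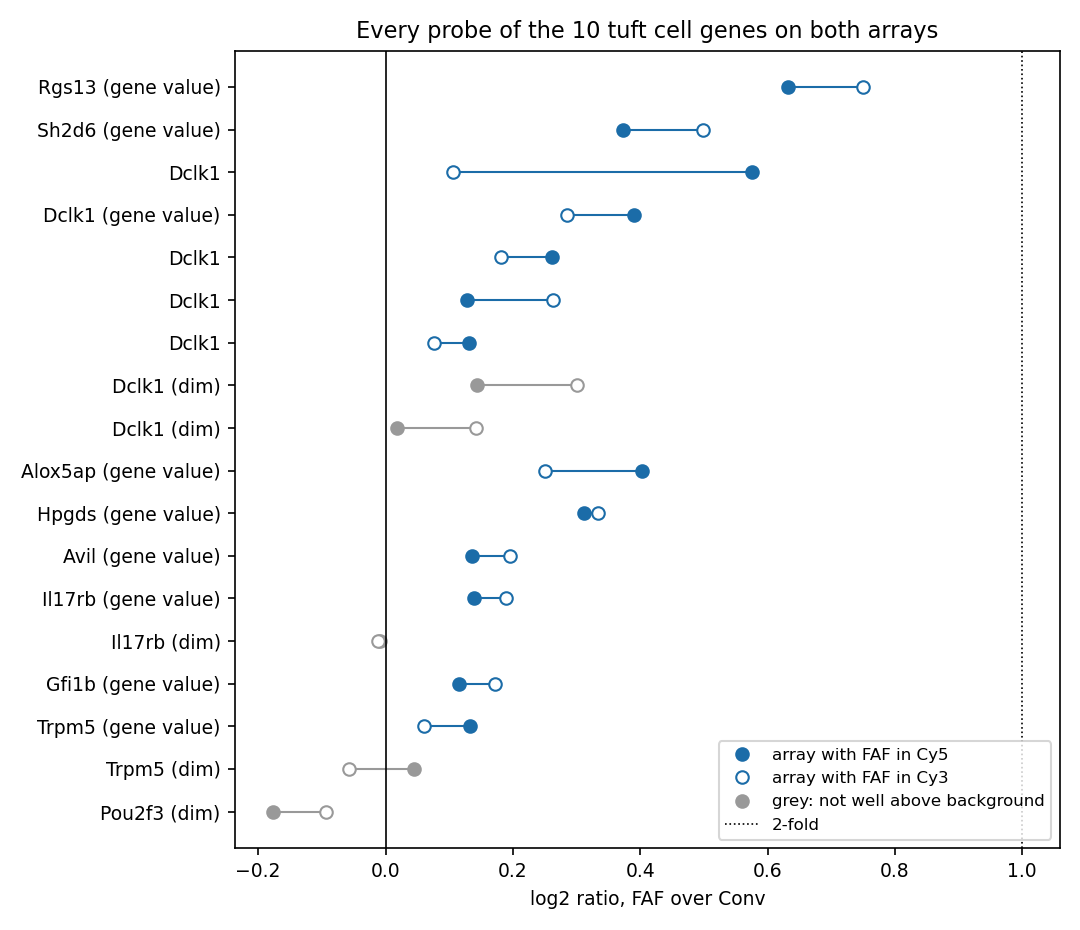
The log2 ratio of FAF over Conv (horizontal axis) of all 18 probes of the 10 tuft cell genes, 1 row per probe, with filled circles for the array with FAF in Cy5 and open circles for the array with FAF in Cy3. The 13 measured probes lie right of 0 on both arrays and left of the dotted 2-fold line, and the 5 grey probes were not well above background.

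Alox5ap and Hpgds, both of lipid mediator synthesis, had ratios near the median of the group. Alox5ap encodes the activating protein of 5-lipoxygenase in leukotriene synthesis and is used by myeloid cells too. Its probe lies at chr5:150099347-150099406. The net intensity of Alox5ap was 841.5 in Cy5 and 318.1 in Cy3 in FAF RNA, against 598.8 in Cy5 and 211.6 in Cy3 in Conv RNA. Its log2 ratio was 0.33 ± 0.08, or 1.25-fold. Hpgds, the haematopoietic synthase of prostaglandin D2, was read by the junction probe shown above, with net intensities of 107.4 in Cy5 and 56.1 in Cy3 in FAF RNA, against 73.4 in Cy5 and 26.7 in Cy3 in Conv RNA. The log2 ratio of Hpgds was 0.32 ± 0.01, or 1.25-fold.

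In the order of ratios, the array values of Rgs13 and Sh2d6 did not overlap. Both arrays hold the same RNA pair, so overlap or its lack reflects dye and hybridisation error only. Sh2d6, Dclk1, Alox5ap and Hpgds overlapped each with the next. A gap lay between Hpgds, whose lower array value was 0.31, and Avil, whose upper one was 0.20. Avil, Il17rb, Gfi1b and Trpm5 again overlapped each with the next. The order of the genes below Rgs13 changed with the background correction. The reported values used an offset of 50, which pulls the ratios of dim probes toward 0. In the software's log ratio Rgs13 was still the highest at 0.98, but Hpgds at 0.75 and Gfi1b at 0.74 came next, followed by Sh2d6 at 0.60 and Dclk1 at 0.50. Alox5ap at 0.36, Avil and Il17rb at 0.28 and Trpm5 at 0.12 followed. With an offset of 10 the values of Rgs13, Hpgds and Gfi1b were 0.86, 0.52 and 0.28.

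**Figure D3:**
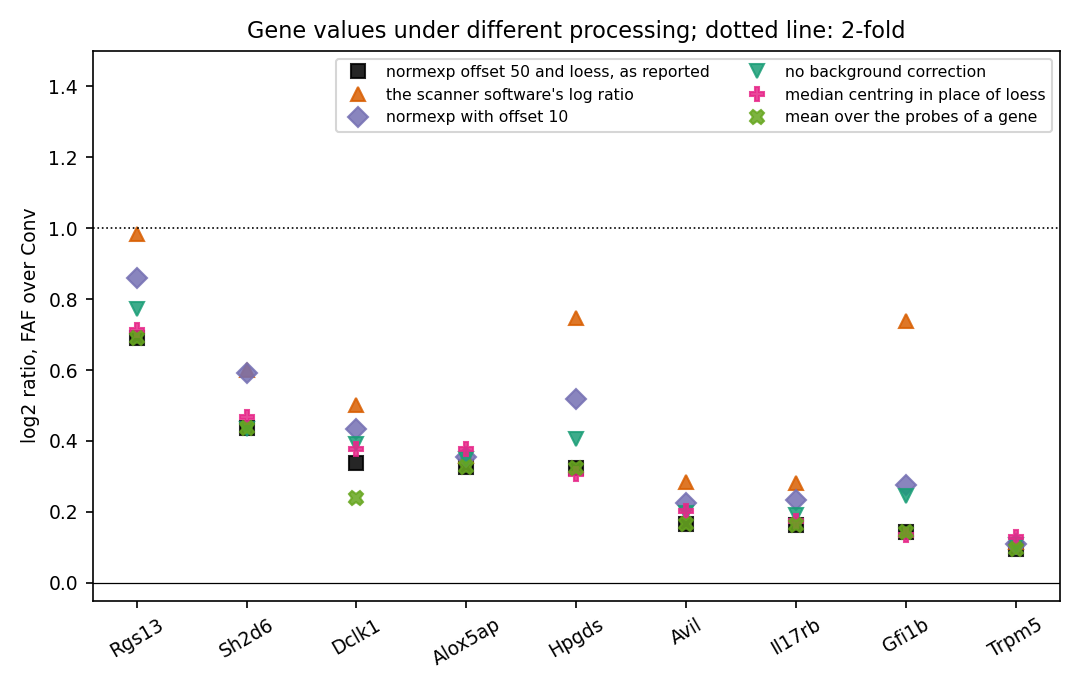
The log2 ratio of FAF over Conv (vertical axis) of the 9 measured tuft cell genes under 6 ways of processing, 1 symbol each. All values lie above 0 and below the dotted 2-fold line, and the spread between symbols is widest for Gfi1b, from 0.13 to 0.74.

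The promoters of the tuft cell genes were searched for the octamer ATGCAAAT, the sequence that POU factors of class 2 such as Pou2f3 bind. The part of such factors in the ratios was not tested. RefSeq windows of build GRCm38.p6 were matched by symbol for 8 of the 10 genes, 9 windows in all. Alox5ap and Pou2f3 had no window. The 250 bases before each start were read on both strands. The octamer was found in 1 of the 9 windows, that of Hpgds, and in 526 of all 32851 windows, or 1.6%. Its first 7 letters, ATGCAAA, which every octamer also holds, were found in 2 of the 9 windows, those of Hpgds and Avil, and in 4.12% of all windows. Both windows are printed because they hold these letters on either strand, given in capitals. In the Avil window, TTTGCAT is the reverse complement of ATGCAAA. A match is a description of the letters and no evidence of binding.
Hpgds, chr6:65144731-65144980, minus strand: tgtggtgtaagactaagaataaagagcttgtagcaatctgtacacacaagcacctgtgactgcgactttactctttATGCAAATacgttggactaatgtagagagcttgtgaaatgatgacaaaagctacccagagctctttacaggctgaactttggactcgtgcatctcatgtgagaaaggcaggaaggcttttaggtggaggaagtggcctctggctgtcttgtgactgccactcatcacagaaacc
Avil, chr10:127000459-127000708, plus strand: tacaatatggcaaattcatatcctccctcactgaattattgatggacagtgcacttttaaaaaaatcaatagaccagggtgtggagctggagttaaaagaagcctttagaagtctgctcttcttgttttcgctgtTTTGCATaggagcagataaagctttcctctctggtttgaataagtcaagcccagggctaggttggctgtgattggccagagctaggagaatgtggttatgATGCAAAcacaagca

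Other genes of the tuft cell pathways were read from lists of the same cascade, mediators and signature. In the taste cascade 6 of 10 listed genes were measured, 0 passed the rule of size and the median log2 ratio was 0.04. That median was 0.33 in the software's log ratio and 0.11 with no background correction. The extremes were Sucnr1, the succinate receptor by which tuft cells of the small intestine sense microbial succinate, at 0.62 ± 0.06 (1.0 in the software's log ratio), and Itpr3, a calcium release channel of the cascade that other epithelial cells use too, at -0.31 ± 0.01. Plcb2, the phospholipase of the cascade, stood at 0.22 ± 0.01. Gng13, a G protein subunit, stood at -0.10, but its arrays differed in sign, at 0.02 and -0.22. Both were named after their values were seen. The G protein subunit Gnb3 and the receptor Tas1r1 were not well above background.

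The lipid mediator list had 9 of 10 genes measured, 1 past the rule as higher and 0 as lower, and a median of 0.25. The gene past the rule was Ltc4s, the synthase of leukotriene C4 that works downstream of Alox5ap, at 1.48 ± 0.12 or 2.78-fold. Alox5, the lipoxygenase that Alox5ap activates, stood at 0.40 and Ptgs1, which makes the substrate of Hpgds, at 0.32. The leukotriene receptor Cysltr1 had 0.44 and the prostaglandin D2 receptor Ptgdr2 0.02, the latter with array values of 0.09 and -0.05. These 4 were named after their values were seen. All 9 means lay above 0, and 6 genes were above 0 on both arrays.

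Of the signature genes for surface, cytokine and structure, 13 of 15 were measured, with 1 past the rule as higher, 0 as lower and a median of 0.33. That gene was the surface receptor Cd300lf, known from tuft cells and myeloid cells, at 1.01 ± 0.11. In this list 10 genes were above 0 on both arrays and 3 below, among them the keratin Krt18 at -0.36 and Cd24a at -0.45, chosen after their values were seen. Chat and Tslp, the genes for acetylcholine synthesis and for a cytokine of tuft cells, were not well above background. Signalling genes that tuft cells share with leukocytes had 13 of 14 measured, 0 past the rule and a median of 0.22. They were split, with 7 above 0 on both arrays and 6 below. The kinase Matk stood at 0.44 ± 0.06. Of the transcription regulators 8 were measured, 0 passed the rule and the median was -0.01. Myb, a regulator of proliferating progenitors, stood at -0.79 ± 0.16, and its 3 other measured probes ranged from -0.83 to -0.45. Spib, a factor of tuft cells and also of B cells, stood at 0.27 ± 0.04.

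The circuit around interleukin 25 was largely below detection at its ligands. Of 15 genes 10 were measured and 0 passed the rule, with a median of 0.10. The cytokines Il25, Il4, Il5 and Il9 and the decoy receptor Il13ra2 gave no signal well above background. The highest values were those of Il33, an alarmin cytokine, at 0.92 ± 0.18, and of its receptor Il1rl1 at 0.65 ± 0.11, with 0.27 on another Il1rl1 probe. Il13, read from a measured probe, had a log2 ratio of 0.00 with array values of -0.05 and 0.06. The epithelial genes that interleukin 13 induces, goblet cell genes included, lay on the other side of 0. Of 9 measured, 8 were below 0 on both arrays, a pattern of 39.4% of all genes, 0 passed the rule and the median was -0.39. The lowest were Ang4, an antimicrobial ribonuclease that Paneth cells also make, at -0.90 ± 0.09, and the lectin Itln1 at -0.68 ± 0.10. Retnlb, a goblet cell product strongly induced in worm infection, stood at -0.60, and Clca1 at -0.39 with array values of -0.07 and -0.70. Retnlb and Clca1 were chosen after their values were seen.

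**Figure D4:**
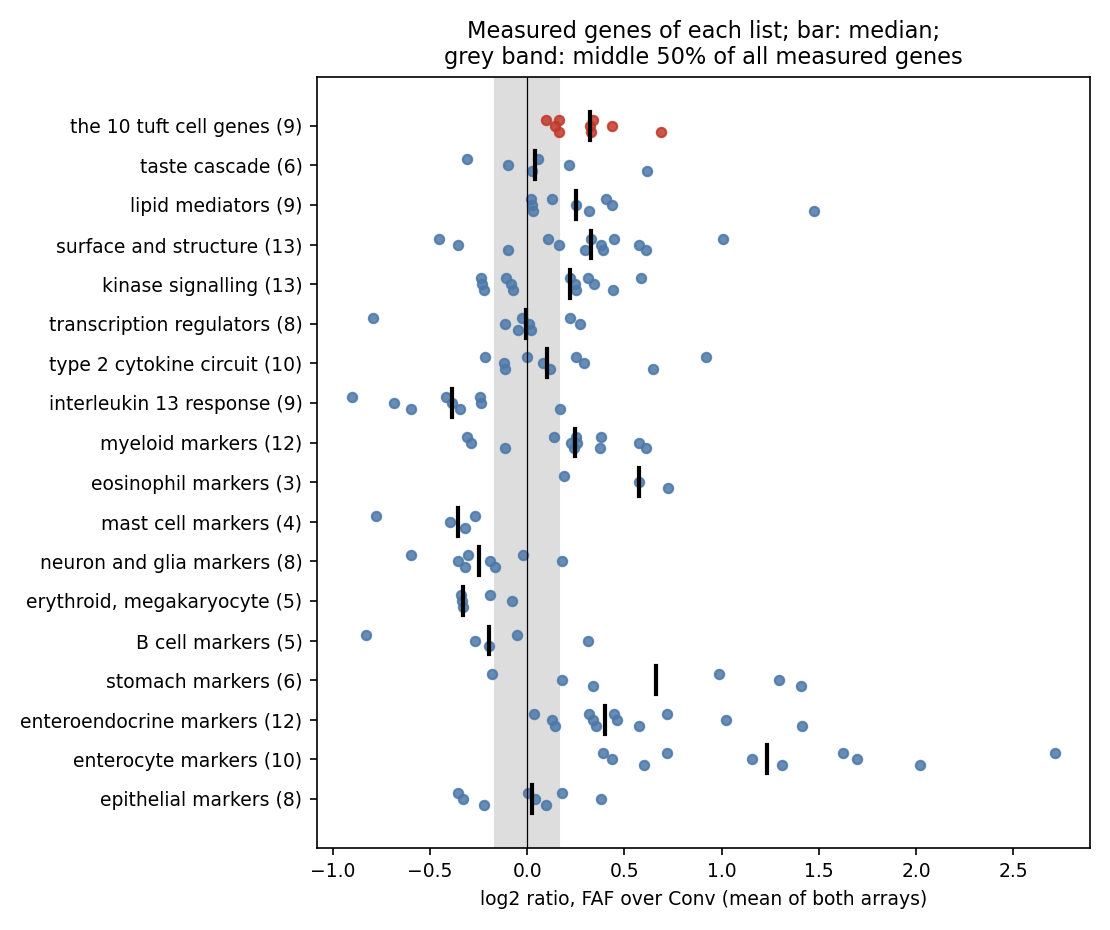
The log2 ratio of FAF over Conv (horizontal axis, mean of both arrays) of each measured gene in 18 lists, 1 row per list with the number of genes in parentheses and a black bar at the median. The tuft cell genes in red have their median at 0.32, outside the grey band between the quartiles of all genes, and the interleukin 13 response has its median at -0.39.

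Several members are used by other cell types, whose markers were read on the same arrays. Of 11 mast cell markers, 4 were measured, all of them below 0 on both arrays, with Mcpt1 at -0.78 ± 0.06 and Mcpt4 at -0.40 ± 0.03. In the software's log ratio these were -1.81 and -0.92, and with an offset of 10 they were -1.21 and -0.60. Their summed net intensity was 608.5 in Cy5 and 258.3 in Cy3 in FAF RNA, against 877.6 in Cy5 and 325.3 in Cy3 in Conv RNA. Cpa3, Tpsb2, Tpsab1, Cma1, Fcer1a, Ms4a2 and Mcpt2 were not well above background. The part of mast cells in the ratios of Rgs13, Hpgds and Alox5ap was not tested. Myeloid markers, of cells that use Alox5ap and Hpgds, had 12 of 12 measured, 9 above 0 and 3 below 0 on both arrays, 0 past the rule and a median of 0.25. The highest were Csf1r at 0.61 ± 0.04 and Tyrobp at 0.57 ± 0.07. The 3 below 0, named after their values were seen, were Cd163 at -0.31, Lyz2 at -0.29 and Itgam at -0.11. Other Csf1r probes stood at 0.13 and 0.50. The summed net intensity of the myeloid markers was 90763 in Cy5 and 32216 in Cy3 in FAF RNA, against 100363 in Cy5 and 30704 in Cy3 in Conv RNA. The 3 eosinophil markers measured of 6 listed included Prg2 at 0.73 ± 0.06 and Siglecf, which is also a tuft cell gene, at 0.57 ± 0.12 (1.11 in the software's log ratio), while Epx and Il5ra were not well above background. Their summed net intensity was 1122 in Cy5 and 487.2 in Cy3 in FAF RNA, against 612.4 in Cy5 and 222.2 in Cy3 in Conv RNA. The part of myeloid cells and eosinophils in the ratios of Alox5ap and Hpgds was not tested.

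Most measured markers of the erythroid and megakaryocyte, neuron and glia, and B cell lists lay below 0 on both arrays, as did 39.4% of all genes. Of 9 erythroid and megakaryocyte markers, set here beside Gfi1b, 5 were measured and all were below 0 on both arrays. Among them were Hbb-bt at -0.34 ± 0.06 and Pf4 at -0.34 ± 0.17. Those not well above background included Gata1, Klf1 and Itga2b. The summed net intensity of the measured ones was 27026 in Cy5 and 10435 in Cy3 in FAF RNA, against 31177 in Cy5 and 10860 in Cy3 in Conv RNA. Enteric neuron and glia markers, beside Dclk1 and Avil, had 8 of 10 measured, 6 below 0 on both arrays and 1 above, with Vip at -0.60 ± 0.07 and Elavl4 at -0.36 ± 0.02. Those not well above background included Gfap. The summed net intensity of the neuron and glia markers was 4403 in Cy5 and 1724 in Cy3 in FAF RNA, against 5268 in Cy5 and 1993 in Cy3 in Conv RNA. B cell and germinal centre markers, beside Rgs13, had 5 of 8 measured, 4 below 0 on both arrays and 1 above, with Cd79b at -0.83 ± 0.10 and Bcl6 at 0.31 ± 0.14. Those not well above background included Cd79a and Mybl1. The summed net intensity of the measured ones was 3864 in Cy5 and 1495 in Cy3 in FAF RNA, against 4357 in Cy5 and 1608 in Cy3 in Conv RNA. The part of these lineages in the ratios of Gfi1b, Dclk1, Avil and Rgs13 was not tested.

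The labelled tissue was checked against its markers, and all 10 enterocyte and all 8 epithelial markers were measured. The epithelial markers had a median of 0.02 and 0 past the rule, from Krt18 at -0.36 ± 0.05 to Krt20 at 0.38 ± 0.20. Enterocyte markers had 6 of 10 past the rule as higher and 0 as lower, with a median of 1.23, as in Apoa4 at 2.71 ± 0.03, Fabp1 at 2.02 ± 0.14, Sis at 1.70 ± 0.07 and Lct at 1.62 ± 0.26. Their summed net intensity was 1352560 in Cy5 and 526898 in Cy3 in FAF RNA, against 706424 in Cy5 and 166070 in Cy3 in Conv RNA. Enteroendocrine markers, of the other chemosensory cells, had 12 of 12 measured, 2 past the rule as higher and 0 as lower, with a median of 0.40, and the hormones past it were Nts at 1.41 ± 0.07 and Gip at 1.02 ± 0.02. Their summed net intensity was 141914 in Cy5 and 52892 in Cy3 in FAF RNA, against 94551 in Cy5 and 30218 in Cy3 in Conv RNA. Stomach markers, of a tissue that holds tuft cells too, had 6 of 8 measured, 5 above 0 on both arrays and 1 below. Their median was 0.66, or 0.40 with only genes well above background in both diets. By the rule of size 2 were higher and 0 lower. The 2 were Gkn2 and Tff1, which were not well above background in Conv. They were at least 2.50-fold and 2.44-fold higher in FAF. The bounds set the FAF level against the higher of the Conv signal and the lowest level well above background. The summed net intensity of the stomach markers was 1327 in Cy5 and 537.0 in Cy3 in FAF RNA, against 433.9 in Cy5 and 191.6 in Cy3 in Conv RNA. The part of enterocytes, enteroendocrine cells and stomach tissue in the ratios of the tuft cell genes was not tested.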

How the data were processed

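Each deposited array file was written, per the file headers, by version 11.5.1.1 of Agilent's Feature Extraction. It holds deposited values of spot intensity and local background per dye, a log10 ratio of Cy5 over Cy3 and a p-value of that ratio, which was not used. The deposited value table held the same log10 ratio to within 5.0e-08, with a median of 0 per array. Its direction was Cy5 over Cy3 on both arrays. Background was removed from the mean intensities by normexp (offset 50), and ratios were normalised by loess within each array, with limma 3.58.1 in R 4.3.3. Ratios were turned to FAF over Conv by the labelled dyes and averaged over the 2 arrays. Control spots and spots flagged as outliers were left out, and 0 non-control spots were saturated. A probe counted as measured when well above background in 1 diet or more on both arrays, and a gene was read from its brightest measured probe. RefSeq accessions named 27662 probes, and 13503 kept the array's name. Levels for the bounds came from loess and Aquantile scaling. The 2 arrays bear on dye and hybridisation error only, and the main limit is 1 RNA sample per diet. The steps were checked on simulated data.

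The members and lists were chosen with earlier results of these data known. All 10 members are named, and from each other list up to 4 genes past the rule of size, or else the 2 of largest absolute ratio. Gnat3, Ffar3, Pou2af2, Pou2af3 and Ear2 of the lists were not analysed here. Some genes of the lists are not reported here by name.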

Additional observations from a re-analysis of the deposited data

How the results depend on the processing

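The 9 tuft cell genes kept a ratio above 0 under all 10 alternatives applied to the ratios. Of 90 such values, 65 lay less than 1 standard deviation of the 2 array values from the reported mean. That band is wider than the range of the 2 arrays, so a gene's value from 1 array by itself always falls inside it. Both changes of the filter on dim probes left all 9 values as they were, and averaging probes changed Dclk1 only. The count of 65 is therefore no measure of stability. With the limit at a mean of 1.5-fold, 1 tuft cell gene was higher, and 775 genes were higher and 616 lower in all, against 263 and 151 by the rule of size. The value table and the scanner software's ratio, which are the same numbers, each gave 487 higher and 350 lower, and a median of 0.50 for the tuft cell genes. Median centring gave 82 lower genes. The median of the tuft cell genes was 0.24 with no filter on dim probes, which adds Pou2f3, 0.24 with all probes of a gene averaged, and 0.25 from the FAF-in-Cy3 array by itself. Of 508 values of other genes and lists, 397 lay within a band of the same kind, which single-array gene values could not leave. The sign changed in 1, the epithelial median, at -0.02 from the FAF-in-Cy5 array by itself. Signal over background limits the dim members such as Gfi1b, Hpgds and, below detection, Pou2f3. No paired analysis was possible because there is 1 RNA sample per diet.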
